A study of Ovis aries with 18 samples.

Results

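The neighbourhood described is a stretch of 2.5 Mb of sheep chromosome 21, from position 49000000 to 51500000 in the Oar_rambouillet_v1.0 genome, around the cytosine at 50425765 that the study's annotation places in an intron of CARS (the CARS site below). Its members are all cytosines measured there, 6218 of the 1850625 in the whole table and 11.2% of the 55500 on the chromosome, and no measured level entered the choice of the limits. The CARS site, however, was already known as a site that differed between diets when the limits were set around it, so its values and those of the cytosines beside it are a description and not independent evidence.

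Methylation was measured by reduced representation bisulfite sequencing (RRBS), which enriches CpG-rich fragments and reads methylation from the cytosines that bisulfite leaves unconverted. The sperm samples were from 6 Polypay rams on a basal diet, of which 3 were controls (Ram410, Ram423, Ram444) and 3 also received rumen-protected methionine (Ram424, Ram498, Ram511), 1.5 g given on top of the feed. Methionine is an amino acid that feeds the methyl donor cycle. Wherever 3 values per diet are given without names, they follow these orders. RNA-seq counts came from 12 pools of embryos sired by the same rams, with 2 pools for each control ram, 4 for Ram424 and 1 each for Ram498 and Ram511. The ram was the replicate for methylation, and pools of 1 sire are not independent of each other.

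In mammals this neighbourhood corresponds to a cluster of imprinted genes, which are expressed mainly from the copy inherited from one parent. One domain is centred on KCNQ1, a potassium channel gene, and holds growth-restricting genes such as PHLDA2 at its edge, beside CARS, which encodes a cysteinyl-tRNA synthetase, and NAP1L4, a histone chaperone gene. The other domain holds IGF2, a fetal growth factor gene. In the ARS-UI_Ramb_v3.0 annotation, which is another build and was used for gene order only, CARS lies between OSBPL5 and NAP1L4, followed by PHLDA2, SLC22A18, CDKN1C, KCNQ1, TRPM5 and TSSC4, and then by TH, INS and IGF2. The reads were not split by parental copy, so imprinting itself was not measured.

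Each listed cytosine had at least 10 reads in each ram. The median coverage of the 6218 cytosines was 22, 23 and 22 reads in controls and 20, 33 and 26 reads with methionine. Coverage depended on the level in 2 of the rams. At cytosines with a mean level of at most 20% the median was 41 reads in Ram498 and 30 in Ram511, and at cytosines of at least 80% it was 11 and 15 reads. In the 3 controls and Ram424 the medians of these classes differed by at most 2 reads, between 19 and 24. Ram498 and Ram511 are both methionine-treated, and the part of this imbalance in the diet comparisons below was not tested. Methionine-treated Ram424 does not show it.

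**Figure D1:**
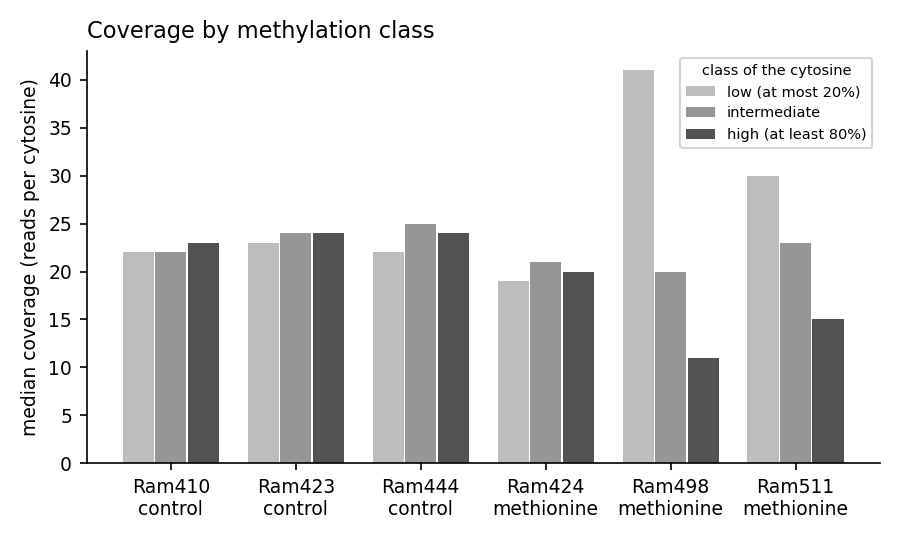
Median coverage (reads per cytosine) in each ram for cytosines of the neighbourhood with a mean level of at most 20% (low), between 20% and 80% (intermediate) and at least 80% (high). The bars fall from 41 to 11 reads in Ram498 and from 30 to 15 reads in Ram511, and are nearly level in the other rams.

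The neighbourhood was more methylated than the rest of its chromosome in every ram. Mean levels over cytosines were 30.4%, 31.6% and 32.6% in controls and 31.4%, 29.98% and 30.3% with methionine. Over the other 49282 cytosines of the chromosome they were 13.8%, 14.3% and 14.8% in controls and 14.9%, 13.3% and 13.6% with methionine. The neighbourhood was thus 16.9 ± 0.51 points higher (SD, n = 6), in 6 of 6 rams (exact sign-flip permutation test over rams, two-sided p = 0.03125, the smallest that 6 rams allow). Of 585 autosomal stretches of the same length with at least 1000 cytosines, 3 had a higher mean, and their median was 9.77%. None of the 25 other autosomes was higher at the same distance from its last measured cytosine, with means of 14.6% to 30.4%. The excess was smaller among deeply covered cytosines. Among those with at least 20 reads in each ram, which were 1.02% of the highly methylated cytosines and 31.1% of the low ones, the neighbourhood was 2.53 points above the rest.

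The higher mean was found at every local density of measured cytosines. Cytosines with 0 to 4 others within 100 bp had a mean of 83.5% against 63.3% in the rest of the chromosome. With 5 to 9 others the means were 54.5% and 27.5%, and with 10 to 19 others they were 18.8% and 7.22%. Where 20 or more others lay within 100 bp, as in a CpG island, both were near 0, at 3.14% and 1.99%. Each of these 4 classes was higher in the neighbourhood in 6 of 6 rams.

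By mean level over the 6 rams, 1664 cytosines (26.8%) were high, 506 (8.14%) intermediate and 4048 (65.1%) low, compared with 10.5%, 5.81% and 83.7% in the rest of the chromosome. High cytosines varied by a median of 6.67 points between the lowest and the highest ram and low ones by 3.70 points. Intermediate cytosines varied by a median of 49.0 points, and 84 of the 506 were between 20% and 80% in each of the 6 rams. The median range of intermediate cytosines in the rest of the chromosome was 37.9 points.

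Along the neighbourhood the level alternated sharply. Means of 100 kb bins ran from 12.1% to 93.7% over 25 bins, with 8 bins above 50%, 4 above 80% and 4 under 20%. The 4 bins above 80% held 42 to 116 cytosines. The bin from 50.8 to 50.9 Mb had 42 cytosines at 93.7%, whereas the bin from 50.5 to 50.6 Mb had 1036 cytosines at 12.1%. The rams followed the same profile, with a median range of 2.92 points per bin. The bin from 49.4 to 49.5 Mb had the widest range, from 73.0% in Ram410 to 93.2% in Ram423, both of them controls.

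**Figure D2:**
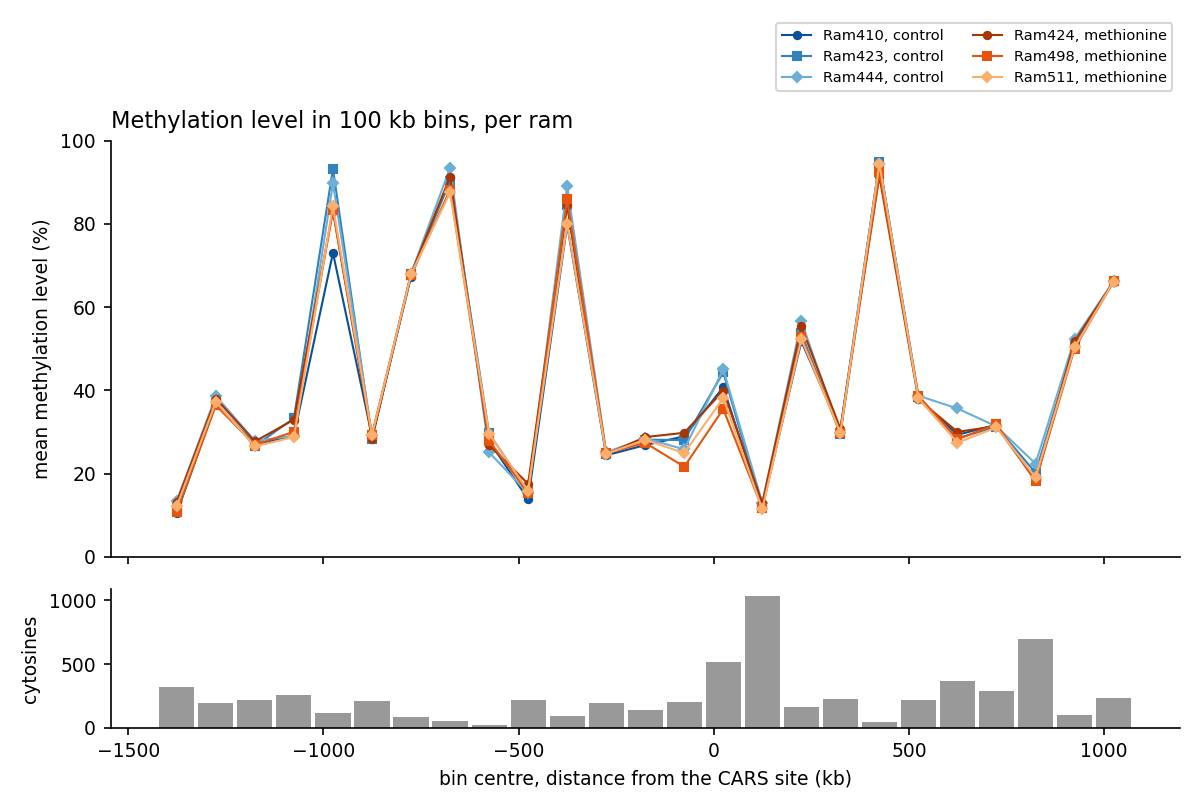
Mean methylation level (%) per ram in 25 bins of 100 kb (upper panel) and the number of cytosines per bin (lower panel) against the distance of the bin centre from the CARS site (kb). The 6 lines overlap over most of the range from 12.1% to 93.7% and part at the bin near -1000 kb and at the bins around the CARS site.

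The diets separated in 2 of the 25 bins, with every methionine-treated ram below every control, while 7.62% of 11306 bins of the genome were separated (4.4% with methionine lower). In the bin with the CARS site the levels were 40.7%, 44.3% and 45.03% in controls and 39.9%, 35.5% and 38.2% with methionine. This is a difference of -5.50 points. The other separated bin, from 51.4 to 51.5 Mb, differed by -0.05 points, with Ram424 at 66.1% and the controls at 66.2%. Over all 6218 cytosines the diet difference was -0.995 points (31.6% ± 1.09 in controls and 30.6% ± 0.758 with methionine, SD, n = 3 each), and the groups overlapped (exact permutation test, two-sided p = 0.2, where 3 rams against 3 cannot go below 0.1). Without Ram410 the difference was -1.55 points and without Ram444 it was -0.47 points. As the methylated share of all reads it was -11.6 points, with Ram424 at 32.4%, between the 3 controls (31.6%, 33.7% and 34.6%), and Ram498 and Ram511 at 12.7% and 20.1%.

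Consecutive cytosines at most 200 bp apart and of the same class were joined into runs of at least 5 cytosines. There were 74 low, 18 intermediate and 122 high runs, which together held most of the cytosines: 3983 in low, 272 in intermediate and 945 in high runs. High runs were 57.0% of the runs here and 20.2% of the 52518 runs of the genome. They were short, with a median of 7 and at most 21 cytosines, whereas low runs had a median of 29.5 and reached 350 cytosines.

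The longest low run, from 51245696 to 51248368, held 350 cytosines at 0.53%, 0.70% and 0.74% in controls and 1.03%, 0.75% and 0.87% with methionine. The next ones held 265 cytosines from 50568628 to 50570767, 162 from 50528882 to 50530230, 146 from 49242770 to 49243865 and 145 from 50136809 to 50137708. All 5 had means under 2% in the average of the 6 rams. Dense unmethylated stretches of this kind are typical of CpG islands in sperm. The largest high run, from 51465430 to 51465966, held 21 cytosines at 98.3% to 99.5% over the 6 rams. The next ones lay at 51099934 to 51100263 (20 cytosines), 51195308 to 51195390 (19), 50591880 to 50592042 (14) and 50085291 to 50085421 (13), all with means of at least 96.5%.

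Low and high runs hardly differed between diets. Over low runs the mean was 3.29% ± 0.750 in controls and 3.18% ± 0.773 with methionine, and over high runs it was 97.7% ± 0.233 and 97.5% ± 0.345 (SD, n = 3 each). Ram424 was at 4.07% in low runs and at 97.1% in high runs. The difference was -0.11 points in low runs (exact permutation test, two-sided p = 0.9) and -0.18 points in high runs (exact permutation test, two-sided p = 0.5). None of the low or high runs passed the thresholds of a q under 0.01 and a difference over 20 points (overdispersed logistic test, with 7 low and 8 high runs at an unadjusted p under 0.05, compared with 6.14% and 9.34% of such runs in the genome). Genome-wide these thresholds were passed by 0.00276% of low and 0.00945% of high runs. The high runs with the largest differences moved with 1 or a few rams. At 50000817 to 50000854, Ram410 was at 69.6% and the other 5 rams at 94.7% to 99.0%. At 50418913 to 50418965 the 6 rams ranged from 70.2% in Ram498 to 99.0% in Ram423, and at 49345026 to 49345084 they ranged from 89.7% in Ram410 to 100% in Ram424.

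The 18 intermediate runs differed more between rams than the low and high runs, which had median ranges of 2.29 and 3.596 points. Their median range over rams was 46.0 points, compared with 29.8 points for the 5692 intermediate runs of the genome. Means over the 18 runs were 39.6%, 55.8% and 66.97% in controls and 48.1%, 32.1% and 40.7% with methionine. Ram444 was highest in 12 of the 18 runs and Ram498 lowest in 11, which over the genome happened in 36.5% and 42.8% of intermediate runs. The groups overlapped, as control Ram410 lay below Ram424 and Ram511 (difference of -13.9 points, exact permutation test, two-sided p = 0.3).

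In all 18 intermediate runs the mean of the methionine-treated rams was below that of the controls, by a median of 14.0 points. The share of intermediate runs lower with methionine was 80.8% over the genome, with a median difference of -5.93 points. Intermediate runs of the whole table were at 43.2%, 49.2% and 53.2% in controls and 51.0%, 34.8% and 37.1% with methionine. Ram498 and Ram511, which had few reads at methylated cytosines, thus lay below each control, and Ram424 lay among the controls. The part of coverage in this was not tested. In 3 of the 18 runs each methionine-treated ram was below each control, while 9.45% of intermediate runs of the genome were separated by diet and 8.92% with methionine lower. These are the run with the CARS site, the run at 50516682 to 50516990 and the run at 51222206 to 51222329.

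**Figure D3:**
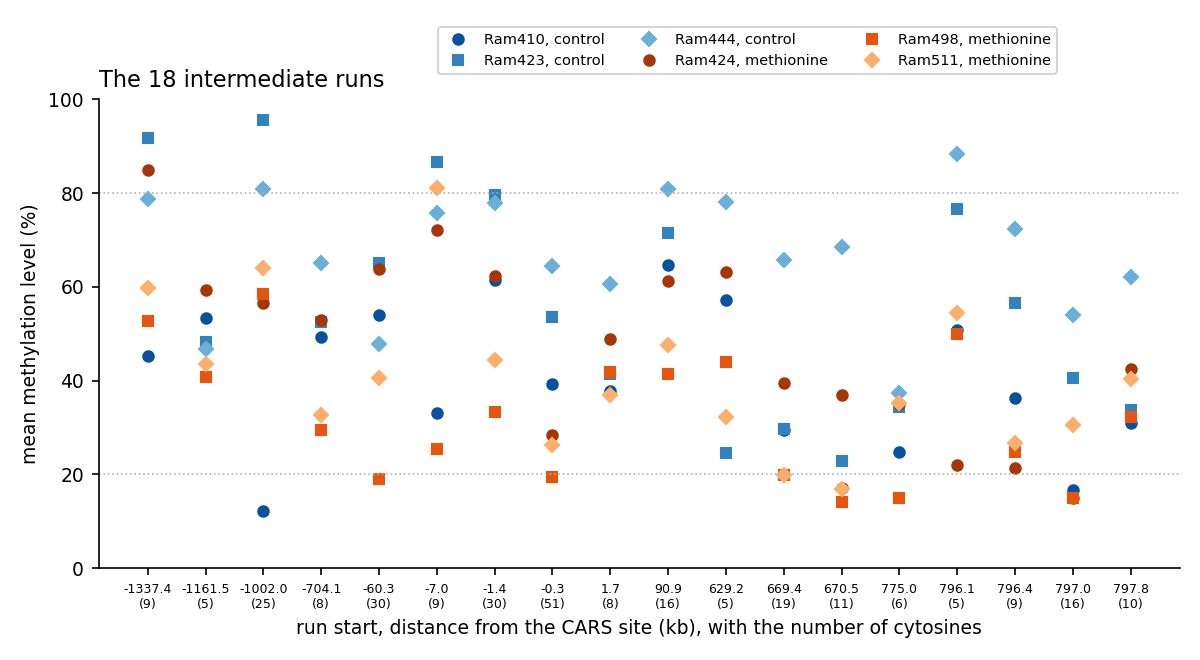
Mean methylation level (%) of each ram in the 18 intermediate runs, ordered by the distance of their start from the CARS site (kb), with the number of cytosines in brackets and dotted lines at the 20% and 80% limits of the class. Controls are blue and methionine-treated rams orange, and the colours are separated at -0.3, 90.9 and 796.4 kb.

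At 50516682 to 50516990, 16 cytosines had levels of 64.6%, 71.6% and 81.0% in controls and of 61.2%, 41.4% and 47.6% with methionine. Ram424 lay 3.4 points below the lowest control, and the run did not pass the thresholds (q = 0.151). At 51222206 to 51222329, 9 cytosines had levels of 36.2%, 56.6% and 72.3% in controls and of 21.4%, 24.9% and 26.6% with methionine, the largest difference of the 18 runs at -30.8 points (q = 0.194). Here Ram424 was the lowest ram. The run is 1 of 4 intermediate runs within 2 kb, from 51221867 to 51223648. Of its neighbours, the run of 5 cytosines at 51221867 to 51221895 had levels of 50.8%, 76.5% and 88.4% in controls and 22.0%, 50% and 54.4% with methionine, in which control Ram410 overlapped Ram511.

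Other large intermediate runs differed between rams without following diet. At 49423735 to 49424154, 25 cytosines were at 12.1% in control Ram410 and at 95.6% in control Ram423, with the other 4 rams at 56.6% to 80.9%. It holds 25 of the 116 cytosines of the bin from 49.4 to 49.5 Mb, which had the widest range in the plot along the neighbourhood. At 50365439 to 50365714, 30 cytosines were at 47.7% to 65.2% in controls and at 63.8%, 18.98% and 40.6% in Ram424, Ram498 and Ram511. At 51095179 to 51095492, 19 cytosines were at 65.7% in Ram444 and at 19.9% to 39.5% in the other 5 rams, and the run of 11 cytosines 1 kb further on showed the same order, with 68.4% in Ram444 and 14.1% to 36.9% in the others. In both of the latter runs Ram410 and Ram423 lay between methionine-treated rams, so that Ram444 was the 1 control above them.

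The run with the CARS site spans 50425417 to 50425799 and is the largest intermediate run, with 51 cytosines. Its mean level was 39.2%, 53.5% and 64.4% in the 3 controls, against 28.4%, 19.4% and 26.4% with methionine. Every methionine-treated ram lay below every control, and Ram424 was 10.8 points below the lowest control. The mean was 52.4% ± 12.6 in controls and 24.7% ± 4.74 with methionine (SD, n = 3 each), a difference of -27.7 points (exact permutation test, two-sided p = 0.1, the smallest possible). It was the 1 run of the neighbourhood that passed the thresholds (pooled difference of -29.9 points, q = 0.000885), as did 0.668% of intermediate runs and 0.0762% of all runs of the genome. Without Ram511 its q was 0.0347 and no run passed, while 2 runs passed without Ram410 and 3 without Ram424. An F test passed none of the runs. Relative to the mean of all intermediate runs in the same ram, it was at -3.96, 4.34 and 11.2 points in controls and at -22.6, -15.4 and -10.7 points with methionine, a difference of -20.1 points. This comparison was not planned, and the part of coverage in the diet difference of the run was not tested.

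The run was covered more deeply than its surroundings, with medians of 38, 103 and 62 reads in controls and 71, 97 and 143 reads with methionine. The lowest of these medians was that of control Ram410. By the mean level of the rams, all 51 cytosines were lower with methionine. By pooled reads, 50425417 was 1.95 points higher with methionine. Of the 51, 36 were separated by diet and 15 passed the thresholds of q under 0.01 and a difference over 20 points. Genome-wide 2.43% of cytosines were separated (1.35% with methionine lower) and 0.0184% passed (0.0157% with methionine lower). Many neighbouring cytosines of the run on the same strand had identical read counts in each ram. They are therefore not independent measurements, and their counts beside the genome shares are not a test. The 15 were all of the cytosines that passed in the neighbourhood, with pooled differences of -27.4 to -40.2 points. At these 15 Ram424 was at 19.7% to 42.6% and below each control. Leaving out Ram410 gave 28 cytosines and leaving out Ram424 gave 24. With an F test in place of the chi-square test, or with limma on logit levels, 0 passed in the neighbourhood and in the whole table (1.45% and 8.01% of the 6218 at an unadjusted p under 0.05, against 0.374% and 5.41% of the whole table).

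The CARS site itself had 15 of 24, 67 of 102 and 39 of 54 reads methylated in controls. These are levels of 62.5% (95% Wilson interval 42.7% to 78.8%), 65.7% (56.1% to 74.2%) and 72.2% (59.1% to 82.4%). With methionine it had 26 of 61, 30 of 90 and 55 of 141 reads methylated. These are levels of 42.6% (31.0% to 55.1%), 33.3% (24.5% to 43.6%) and 39.0% (31.3% to 47.2%). The intervals cover counting error only. Those of Ram423 and Ram444 lie above all 3 of the methionine-treated rams, and that of Ram410, with the fewest reads, overlaps with them.

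The difference was not even along the run. The 18 cytosines from 50425729 to 50425799, the end with the CARS site, were at 59.5%, 59.7% and 69.9% in controls and 34.9%, 24.2% and 34.9% with methionine, and 13 of the 15 cytosines that passed lay here. The diets were separated at 17 of these 18. At the other, 50425738, control Ram423 was at 14.7% and Ram424 at 18.0%. The other 2 were at 50425544 and 50425546. In the 19 cytosines from 50425417 to 50425493 the controls were farther apart, at 28.9%, 47.8% and 61.6%, with methionine-treated rams at 26.4%, 14.2% and 19.5%, and none passed. In this stretch Ram410 and Ram424 lay 2.51 points apart. In the 7 cytosines from 50425675 to 50425706 the groups overlapped, with Ram410 at 16.5% and the methionine-treated rams at 18.3% to 28.5%. Ram410 was at 0% at 50425676, 50425680 and 50425685, with only 10 reads each. With 52 reads each, it was at 1.92% at 50425675, at 38.5% at 50425679 and 50425684 and at 36.5% at 50425706. In the remaining 7 cytosines, from 50425515 to 50425645, Ram410 was at 37.96% and the methionine-treated rams were at 25.8%, 22.1% and 20.6%. Control Ram410 was 24.6 and 12.1 points above Ram424 in the parts that held the cytosines that passed. In the other parts it was within 3.35 points of Ram424. The calls rest on these same levels, so this contrast is not separate evidence. By position, the diet differences of the parts were -26.1, -29.7, -19.7 and -31.7 points.

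**Figure D4:**
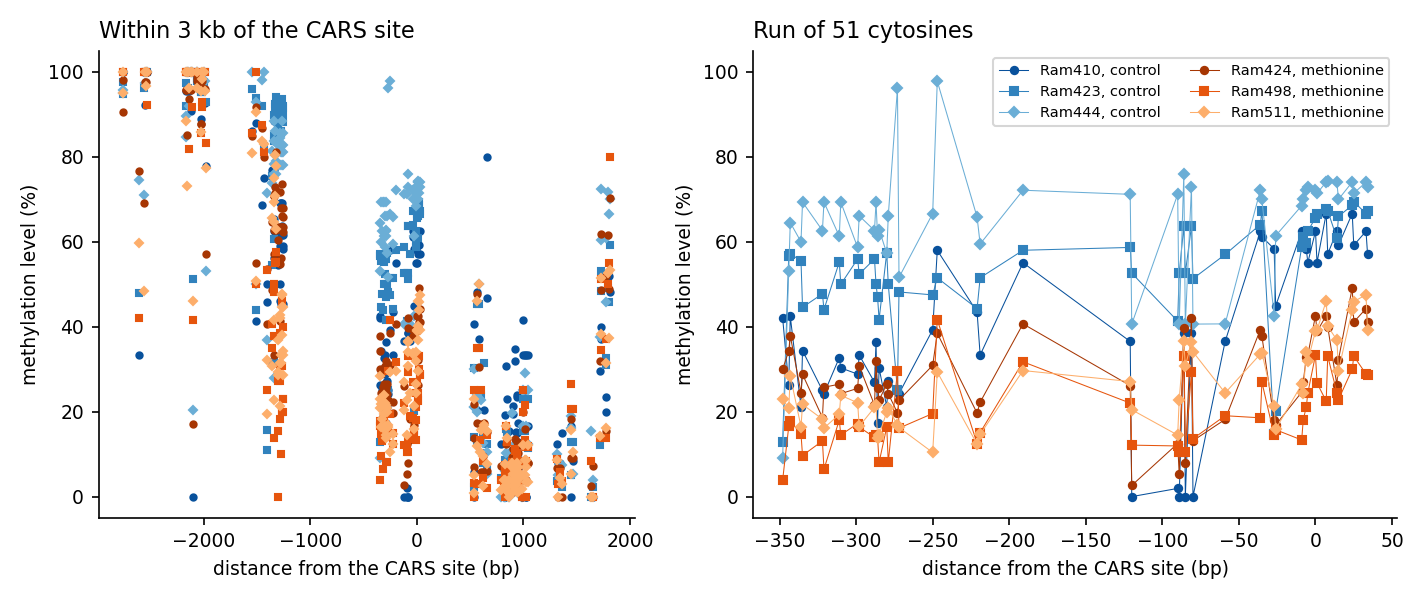
Methylation level (%) of single cytosines in each ram against the distance from the CARS site (bp), within 3 kb (left) and in the run of 51 cytosines (right), where lines join the cytosines of a ram. Most levels are near 100% at the far left and under 20% between about 500 bp to the right and a last group of sites at which they rise again, and the controls (blue) lie above the methionine-treated rams (orange) at 17 of the 18 cytosines in the end of the run at the CARS site.

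The run lies between a methylated and an unmethylated stretch. About 2 kb before the CARS site, the high runs from 50423597 to 50423779 were at 94.0% to 98.1% in the 6 rams. The 30 cytosines from 50424360 to 50424511 formed an intermediate run at 61.5%, 79.7% and 78.0% in controls and 62.2%, 33.3% and 44.3% with methionine, in which Ram424 lay with the controls (difference of -26.4 points, q = 0.116). After the CARS run the level fell. The 6 cytosines from 50426362 to 50426422 were at 22.0%, 18.1% and 14.2% in controls and 10.3%, 11.6% and 10.5% with methionine, which separated the diets by -7.29 points (q = 0.00422, with a difference under the limit of 20 points). The 34 cytosines from 50426552 to 50426760 were at 4.75% to 13.6% in all rams, and from 50427486 to 50427582 a run of 8 cytosines rose again to 36.9% to 60.7% with overlapping diets. Of the 12 runs within 6 kb of the CARS site, 3 separated the diets, which are the CARS run, the run of 6 cytosines and a run of 5 cytosines from 50426786 to 50426812. Of the low runs of the genome 8.73% were separated.

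Both strands of a CpG were listed apart. Over 1593 pairs of the neighbourhood, 94.3% of the levels of a ram differed by at most 10 points between strands, and over the 22 pairs of the CARS run 79.5% did, with a median difference of 5.21 points. Over the 82 pairs in intermediate runs 59.3% did, with a median difference of 7.64 points.

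Windows of 200 bp in steps of 50 bp gave the same place. Of 2235 windows, 6 passed the thresholds (0.0635% did over the genome), and they overlapped each other from 50425501 to 50425950. There were 20 such windows without Ram410, 22 without Ram424 and 10 without Ram498, and 0 with an F test. The last of them had levels of 59.3%, 65.0% and 72.2% in controls and 36.7%, 25.9% and 37.3% in Ram424, Ram498 and Ram511.

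Outside the CARS run no cytosine passed the thresholds. An unadjusted p under 0.05 was found at 323 cytosines (5.19%), against 2.94% over the genome, and at 4.51% of the cytosines outside the CARS run. The diets were separated at 221 cytosines (3.55%), against 2.43% over the genome. Outside the run they were separated at 185 of the 6167 cytosines, a share nearer to that of the genome. The smallest p-values outside the run and its 200 bp belonged to cytosines such as 50423612, which was at 100% in the 3 controls and Ram498 and at 85.1% and 73.1% in Ram424 and Ram511 (q = 0.0159), and 50426386, at 16.7%, 14.8% and 12.7% in controls and 5.71%, 4.41% and 2.61% with methionine (q = 0.193).

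Single cytosines also differed widely between rams without regard to diet. Levels spanned the whole range from 0% to 100% at 27 cytosines. At 51175977 the rams were at 41.4%, 48.4% and 59.4% in controls and 56.7%, 100% and 0% in Ram424, Ram498 and Ram511, while the 3 neighbours within 50 bp had a mean range of 3.34 points. At 49210255 the levels were 45.7%, 0% and 100% in controls and 57.1%, 35.7% and 0% with methionine. These sites fell near 0%, near 50% or near 100% in most rams. In contrast, at 49424118, in the run where Ram410 was lowest, the 3 neighbours within 50 bp had a mean range of 89.7 points.

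In embryos, 15 of the 20 genes listed for the KCNQ1 and IGF2 domains were found by symbol among the counted genes. Of these, 6 passed the filter of at least 15 counts in more than 3 pools. CDKN1C, KCNQ1OT1, CD81, IGF2 and H19 were not found under these symbols, so their expression is not known here. Library totals were 1017847 to 2398589 counts per pool, so low genes such as PHLDA2 (21 counts over the 12 pools), INS (5) and SLC22A18 (53) could not be tested. None of the 6 genes passed an FDR of 0.05 in edgeR's quasi-likelihood test (1 of them at an unadjusted p under 0.05), nor did any of the 16488 genes tested (0%, with 7.92% at an unadjusted p under 0.05). The count over all genes depended on the test. With edgeR's likelihood-ratio test 5 of the 16488 genes passed and with DESeq2 16 did, and 0 of these were in the list. By log2 fold change 4 of the 6 genes were higher and 2 lower in embryos of methionine-treated sires, with a median of 0.22 against 0.01 over all genes.

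In CPM, which scales counts to the size of the library, CARS had 28.6 and 31.2 CPM in the pools of Ram410, 46.4 and 46.2 in those of Ram423 and 34.8 and 15.6 in those of Ram444. In embryos of methionine-treated sires it had 86.5, 72.5, 64.9 and 63.4 CPM in the 4 pools of Ram424, 95.1 in that of Ram498 and 48.6 in that of Ram511. Every methionine pool lay above every control pool, as was the case for 0.158% of genes, although the lowest methionine pool was only 2.15 CPM above the highest control pool. The study had already reported CARS for a correlation of its expression in these embryos with sperm methylation at the CARS site. This separation is therefore a description and not independent evidence, and pools that share a sire are not independent. The means were 33.8 ± 11.7 and 71.8 ± 16.8 CPM (SD, n = 6 pools each), with a log2 fold change of 1.09 (SE 0.28) that did not pass in edgeR's quasi-likelihood test (FDR = 0.584, unadjusted p = 0.0011), with DESeq2 (FDR = 0.0779) or with the likelihood-ratio test of edgeR (FDR = 0.108). With pools summed per ram the unadjusted p was 0.0164 and the adjusted p 0.999.

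The neighbours of CARS showed no comparable separation. NAP1L4 had 77.9 to 254 CPM in control pools and 50.6 to 242 CPM in methionine pools (log2 fold change 0.16, SE 0.35). OSBPL5, a lipid transfer protein gene, had 8.28 to 29.5 and 10.2 to 67.4 CPM. KCNQ1 had 8.49 to 15.6 and 4.94 to 76.3 CPM, TSSC4 2.83 to 15.8 and 0.566 to 21.8 CPM, and TNNT3, a skeletal muscle troponin gene, 2.14 to 27.8 and 2.46 to 43.6 CPM. For OSBPL5, KCNQ1 and TNNT3 the highest methionine value came from the pool of Ram511. This pool and the second pool of Ram444 correlated least with the other pools over all genes (highest Spearman coefficients 0.626 and 0.622, compared with at least 0.831 for each other pool), and their part in the levels was not tested. Leaving out both gave a log2 fold change of 1.02 for CARS (FDR = 0.228), -0.53 for OSBPL5 and -0.89 for KCNQ1, and leaving out the pool of Ram511 alone gave -0.44 for OSBPL5 and -0.78 for KCNQ1. Without both pools of Ram444 these genes stayed at 0.30 and 0.37, so the sign of both changed with the pool of Ram511. OSBPL5 was also at -0.0016 without the pools of Ram410.

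**Figure D5:**
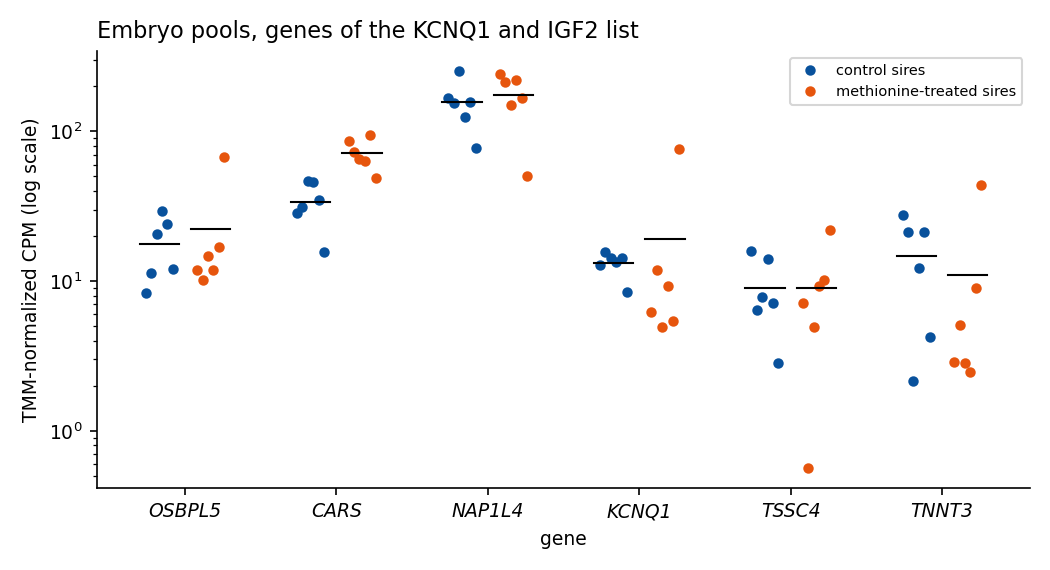
TMM-normalized CPM (log scale) in the 12 embryo pools for the 6 genes of the list that were tested. Each point is a pool and each line the mean of 6 pools. For CARS the 6 pools of methionine-treated sires lie above the 6 control pools, and the other genes overlap.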

How the data were processed

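Sperm RRBS of 6 rams and RNA-seq of 12 embryo pools, each of 5 embryos, were analysed. The authors aligned the RRBS reads to Oar_rambouillet_v1.0 with Bismark and deposited methylated and unmethylated read counts per cytosine and ram, with strands apart and at least 10 reads in every ram. The deposited embryo files hold raw counts for each gene.

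The members and the gene list were chosen with earlier results of these data known. Counts were tested per cytosine, per 200 bp window (at least 3 cytosines) and per run by logistic regression on diet, with overdispersion of at least 1 and a chi-square test. P-values were adjusted by Benjamini-Hochberg over the whole table, and a call needed q under 0.01 and a pooled difference over 20 points. Ram age, a term of the authors' model, is not in the labels and was left out. Runs were classed by the mean level of the 6 rams, with limits of 20% and 80%. Single values were compared by exact permutation of rams. Replicates are rams, and pools share sires, so p-values over pools do not reflect 6 independent sires.

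Embryo counts were tested with edgeR 4.0.16 (TMM, quasi-likelihood), with DESeq2 1.42.0 as an alternative. For methylation, limma 3.58.1 on logit levels was an alternative. These ran in R 4.3.3, and other steps ran in Python 3.11.15 with scipy 1.17.1. Genes needed at least 15 counts in more than 3 pools. The tests were run on simulated data. The simulated methylation counts varied between rams of a diet by counting error only. They therefore cannot show how the chi-square test behaves where rams of a diet differ more, as in the CARS run. Other tests, limits, depths and omissions of 1 ram were tried as alternatives. Cytosines described singly were the CARS site, those within 200 bp, those that passed, the 5 smallest p outside these and the 5 widest ranges, and runs were the 5 largest per class, those that passed and the 3 intermediate and 3 high runs of largest difference. Other runs and cytosines were picked after their values were seen.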

Additional observations from a re-analysis of the deposited data

Results flagged for a closer look

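In 3 of 12 groups of 6 embryo pools examined (6 genes in each diet), 1 pool lay far from the others by Dixon's test. For normally distributed values chance gives about 1 such group in 20, but these groups share the same pools and are not independent. All 3 were in the pool of methionine-treated Ram511, which had 67.4 CPM of OSBPL5 where the next highest methionine pool had 16.9, 76.3 CPM of KCNQ1 where the next had 11.9, and 43.6 CPM of TNNT3 where the next had 9.03. This pool also had the lowest total of the 12, with 1017847 counts. The part of the depth in these values was not tested.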

How the results depend on the processing

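The number of cytosines that passed in the neighbourhood (15) was 0 with an F test, 0 with limma on logit levels, 95 without the overdispersion correction and 10 to 28 when 1 ram was left out. Windows that passed (6) were 0, 47 and 4 to 22 with the F test, without the correction and without 1 ram, and runs that passed (1) were 0, 5 and 0 to 3, and 2 with class limits of 30% and 70%. The number of intermediate runs (18) was 37 with at least 3 cytosines per run, 9 with at least 10, 34 with limits of 10% and 90%, 4 with at least 20 reads per ram and 19 to 22 without 1 ram. High runs (122) were 240 with at least 3 cytosines, 26 with at least 10, 0 with at least 20 reads and 118 to 121 without 1 ram, and low runs (74) were 73 to 75 without 1 ram. The diet difference of the mean level was -1.55 to -0.47 points without 1 ram. It was -11.6 points as the methylated share of all reads, which weighs each cytosine by its reads. The difference from the rest of the chromosome was 16.8 to 17.02 points without 1 ram, with p = 0.0625 in the exact sign-flip permutation test, the smallest 5 rams allow. The cause of the changes in these counts and differences was not tested.

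In embryos, 0 genes of the list passed under any alternative run, including leaving out the pools of each ram (0 to 0 genes). Without the pools of 1 ram the log2 fold change ran from -0.44 to 1.24 for OSBPL5, -0.51 to 0.35 for NAP1L4, -0.78 to 1.61 for KCNQ1, -0.47 to 0.81 for TSSC4 and -1.73 to 0.81 for TNNT3, so each of these turned sign in at least 1 of the fits. It also turned sign with pools summed per ram (NAP1L4 -0.071, TSSC4 0.44, TNNT3 0.26) and without the second pool of Ram444 and the pool of Ram511, chosen after seeing the data (OSBPL5 -0.53, KCNQ1 -0.89). CARS stayed higher in all of them, at 0.91 to 1.39. No paired analysis was possible because the replicate labels are ram names that no 2 diets share.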
